A study of Mus musculus with 6 samples.

Results

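Prickle2 is a gene of 335293 bp on the minus strand of mouse chromosome 6 (chr6:92370892-92706184, mm10), and its gene body held 54 of the 18333 differentially methylated regions (DMRs) listed between infant and young adult lung endothelial cells (EC). All 54 lost methylation in the young adult. The 54 regions were selected on measured values: a DMR belongs to the gene when its midpoint lies in the gene body, the authors listed it because its group means differed, and the gene itself was picked for its many loss DMRs. Their number, direction and size are therefore a description, and no test of them is given.

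Sorted lung EC came from female C57BL/6N mice, 3 samples of infants at 8 to 10 days of age and 3 of young adults at 8 to 12 weeks. No genetic change or treatment is named for either group. The cells were PTPRC-LYVE1-LY76-PDPN-PI-CD31+CD34+, that is live cells with the endothelial surface proteins CD31 and CD34 and without markers of leukocytes, red cells and lymphatic EC. DNA methylation was read by whole-genome bisulfite sequencing of tagmented DNA (T-WGBS), in which a transposase cuts the DNA and adds the adaptors, and bisulfite then converts unmethylated cytosines. Each value below is the authors' mean over the 3 samples of a group and over the CpGs of a DMR, in percent methylation. Values per sample were not used here, so there is no replicate error, and the depth behind a DMR is unknown. A list of DMRs holds no level of marker genes, so the identity of the cells could not be checked from it.

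Prickle2 encodes a cytoplasmic protein with a PET domain and LIM domains. It belongs to the core of the planar cell polarity pathway, which aligns cells within the plane of a sheet. In that pathway Frizzled and Dishevelled proteins gather at one side of a cell, Vangl and Prickle proteins at the opposite side, and the Celsr cadherins link neighbouring cells. In blood vessels the pathway is known for its part in orienting EC and their junctions during growth. Methylation of CpGs is high over most of a mammalian gene body, and low stretches inside introns are often regulatory elements such as enhancers.

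The DMRs are numbered P1 to P54 in the direction of transcription, so that P1 lies nearest to the start site of the long transcript. The following sequences are those of the 5 DMRs with the largest loss. They are read from the plus strand of GRCm38 (mm10), from the first to the last CpG of the DMR, with each CpG in capitals. P1 lies at chr6:92704658-92704813, P52 at chr6:92393189-92393244, P30 at chr6:92521793-92521925, P53 at chr6:92381921-92381968 and P20 at chr6:92662465-92662506.
P1: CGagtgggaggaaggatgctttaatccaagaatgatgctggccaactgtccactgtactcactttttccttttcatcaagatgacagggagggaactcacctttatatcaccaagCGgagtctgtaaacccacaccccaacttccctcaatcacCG
P52: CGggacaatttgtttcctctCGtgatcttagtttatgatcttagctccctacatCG
P30: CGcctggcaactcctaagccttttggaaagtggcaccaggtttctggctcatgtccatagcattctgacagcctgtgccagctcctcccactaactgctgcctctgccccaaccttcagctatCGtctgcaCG
P53: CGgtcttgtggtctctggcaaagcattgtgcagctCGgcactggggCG
P20: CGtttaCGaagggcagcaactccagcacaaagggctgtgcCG

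All 5 have 3 CpGs, the least that the authors accepted for a DMR. In P1 methylation was 79.0% in infant EC and 8.81% in young adult EC, so it fell by 70.2 points. P52 fell by 64.1 points, from 79.4% to 15.3%, in the last intron. P30 went from 64.9% to 10.8%, P53 from 68.7% to 15.3% and P20 from 57.8% to 7.59%. All 5 thus ended between 7.59% and 15.3%. They are spread over the gene, with midpoints 1.45 kb (P1), 43.7 kb (P20), 184 kb (P30), 313 kb (P52) and 324 kb (P53) behind the start site. Sequence lengths of the 5 ranged from 42 bp in P20 to 156 bp in P1.

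The 5 DMRs with the smallest loss are printed for comparison in the same way. P47 lies at chr6:92422464-92422503 across the border of intron 4 and exon 5, P27 at chr6:92563478-92563530, P48 at chr6:92420262-92420323 within exon 6, P23 at chr6:92618287-92618307 and P16 at chr6:92680122-92680211.
P47: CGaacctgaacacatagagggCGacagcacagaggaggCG
P27: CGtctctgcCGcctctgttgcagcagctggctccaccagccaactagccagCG
P48: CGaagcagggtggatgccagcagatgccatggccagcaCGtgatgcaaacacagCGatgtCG
P23: CGgacaacaattCGaaactCG
P16: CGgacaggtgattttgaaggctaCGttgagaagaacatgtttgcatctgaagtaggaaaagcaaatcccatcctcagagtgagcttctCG

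P47 went from 20.8% to 7.11% and fell by 13.7 points, which is the member closest to the authors' minimum difference of 10%. P27 went from 25.7% to 8.04%. These DMRs had the lowest infant levels of the gene. P48 was of the opposite kind, with 90.3% in infant EC against 72.4% in young adults, the highest young adult level among the 54. P23 went from 85.2% to 62.3% and P16 from 73.5% to 49.2%, so both kept at least 49.2% methylation.

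A further 3 sequences mark positions that the text comes back to. P43, at chr6:92425738-92425796 just before exon 4, had the lowest young adult level. P40, at chr6:92443689-92443819 in intron 3, reaches with its last printed CpG into the stretch that the study chose for a second method. P54, at chr6:92377304-92377397, is the DMR nearest to the end of the gene.
P43: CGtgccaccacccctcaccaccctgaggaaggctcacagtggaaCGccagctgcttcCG
P40: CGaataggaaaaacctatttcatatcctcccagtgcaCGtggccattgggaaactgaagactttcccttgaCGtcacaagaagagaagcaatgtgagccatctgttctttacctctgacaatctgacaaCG
P54: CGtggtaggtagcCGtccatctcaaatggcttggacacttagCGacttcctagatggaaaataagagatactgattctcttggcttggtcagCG

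Over the 54 DMRs the mean methylation was 70.4% ± 16.6 (SD over DMRs, n = 54) in infant EC and 35% ± 17.2 in young adult EC. The median was 73.1% in infant EC, with quartiles of 61.2% and 83.4%, and 37.4% in young adult EC, with quartiles of 20.9% and 48.1%. The difference, young adult minus infant, had a median of -34.3 points and ran from -70.2 to -13.7 points. Infant levels reached from 20.8% to 95.5%, and young adult levels from 1.97% to 72.4%.

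Most Prickle2 DMRs were thus well methylated in the infant and intermediate in the young adult. Above 80% methylation lay 17 DMRs in infant EC and 0 in young adult EC, whereas 13 DMRs were below 20% in young adult EC and 0 in infant EC. At 22 DMRs the young adult mean stayed above 40%. Across the 54 DMRs, the infant and young adult means had a Pearson r of 0.819, compared with 0.868 over all 8422 loss DMRs. The points of such a correlation share the same libraries and the same minimum difference, and it is given as a description only.

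**Figure D1:**
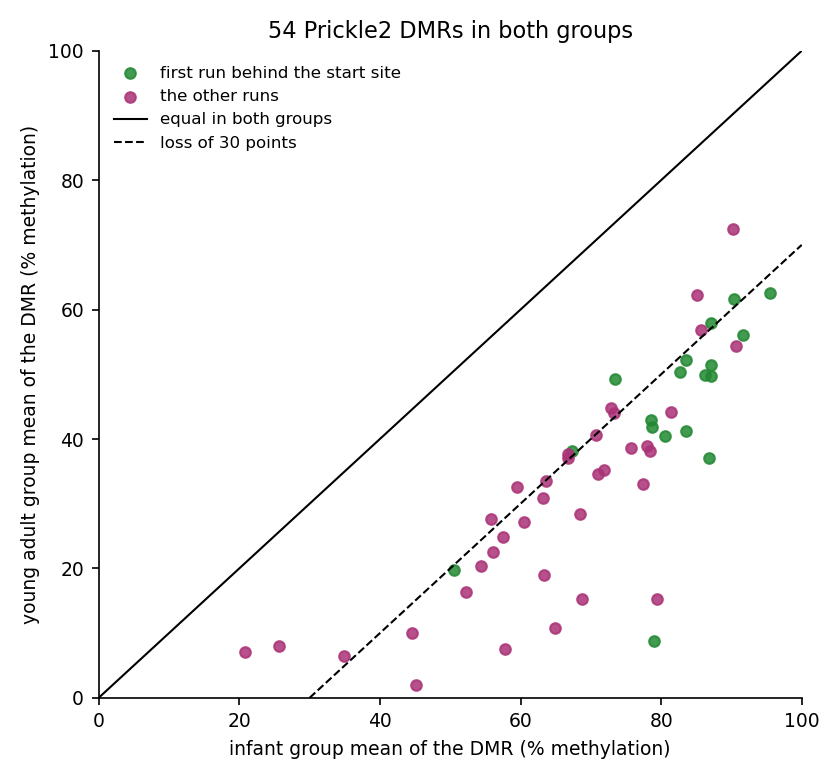
Infant group mean (x axis, % methylation) against young adult group mean (y axis, % methylation) of the 54 Prickle2 DMRs. Each point is 1 DMR, green for the 18 DMRs of the first run behind the start site and purple for the other 36, the solid line marks equal means and the dashed line a loss of 30 points. All points lie below the solid line, and 38 of the 54 lost at least 30 points.

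Loss was the direction of 45.9% of all 18333 DMRs and of 57.5% of the 12175 DMRs within genes, beside 54 of 54 in Prickle2. A loss of at least 30 points was seen in 38 of the 54, while 61.2% of the 8422 loss DMRs of the genome reached that size. At least 40 points were lost in 13 of the 54, while 20.3% of all loss DMRs did so. Since the list and the gene were chosen by this contrast, nothing is read from these shares. The size of the Prickle2 losses lay close to that of the other loss DMRs, whose median difference was -32.5 points. The Prickle2 medians were higher than those over all loss DMRs but lay between their quartiles, 47.3% to 74.5% in infant EC and 13.7% to 39.0% in young adult EC. The median over all loss DMRs was 61.5% in infant EC against 25.4% in young adults, and over the 6998 loss DMRs within genes 62.1% and 25.7%. Of all loss DMRs, 72.4% had an infant mean and 72.0% a young adult mean below the Prickle2 median.

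The curated RefSeq annotation gives Prickle2 4 start sites. The transcript NM_001081146.2 has 9 exons and spans the whole gene, and its second intron alone measures 246687 bp. The other starts lie inside this intron, 139 kb (NM_001134461.1), 171 kb (NM_001134459.1) and 225 kb (NM_001134460.2) downstream, and these shorter transcripts have 8 exons each.

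Of the 54 DMRs, 36 (66.7%) had their midpoint in intron 2 of the long transcript, which holds 73.6% of the length and 67.3% of the CpGs of the gene. Intron 3 (32781 bp) held 7 and intron 8 (33936 bp) held 6. Intron 4 is only 3111 bp long and held 4, or 12.9 DMRs per 10 kb against 1.46 in intron 2. Introns 1, 5, 6 and 7 held none, and exon 6 held P48. These 4 introns are short, with 0.20%, 0.59%, 0.96% and 1.52% of the length and 1.11%, 0.65%, 0.92% and 1.76% of the CpGs of the gene. Nothing is read from their lack of DMRs. A further 2 DMRs touched an exon, P36 at exon 3 and P47 at exon 5, so that 3 of the 54 overlapped exon sequence. The share of all DMRs that overlap an exon is not given here, so this count is a description only.

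No DMR lay on a start site. The study reports that its loss and gain DMRs alike were depleted at transcription start sites. The share of all DMRs on such sites was not computed here, so their absence is not read as particular to Prickle2. The RefSeq promoter windows of the 4 starts, each from 250 bp before to 50 bp after the start, overlapped 0 of the 54 DMRs. The nearest DMR was P33, 945 bp from the start of NM_001134460.2, with 60.6% in infant EC against 27.2% in young adults. P1 lay 1.45 kb behind the start of the long transcript, P26 2.12 kb from that of NM_001134461.1 and P28 2.89 kb from that of NM_001134459.1. Within 5000 bp of any of the 4 starts lay 8 DMRs, and within 1000 bp only P33. Around the starts the density was uneven, since within 10 kb lay 8 DMRs at the long transcript's start but 2, 1 and 2 at the other three.

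**Figure D2:**
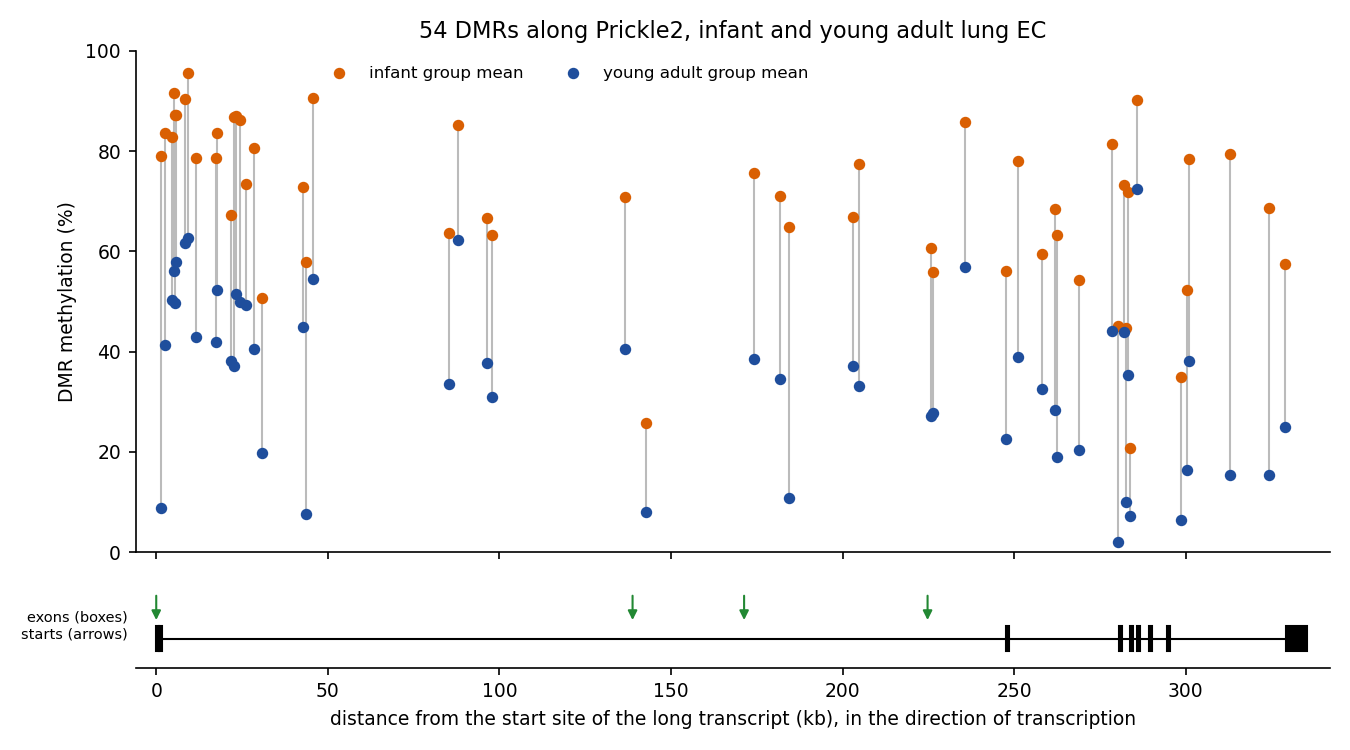
Methylation (y axis, %) of the 54 Prickle2 DMRs against the distance of their midpoint from the start site of the long transcript (x axis, kb, in the direction of transcription). Orange points are infant and blue points young adult group means, a grey line joins both means of a DMR, black boxes are the exons of the long transcript (short ones drawn wider than to scale so that they can be seen) and green arrows the 4 start sites. In each DMR the young adult mean lies below the infant mean, and the first 30.7 kb hold 18 of the DMRs.

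The DMRs were clustered along the gene. The median gap between neighbours was 2147 bp, 12 of the 53 gaps were at most 500 bp, and the longest measured 39487 bp. When DMRs at most 10 kb apart were joined, 11 runs resulted. Runs 1 and 8 in the direction of transcription held 18 and 13 DMRs, and the other 9 held between 1 and 4.

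Run 1 opened 1.45 kb behind the start site of the long transcript and extended to 30.7 kb, entirely in intron 2. Its 18 DMRs covered 82 of the 217 CpGs in this span of 29.7 kb. P2 (chr6:92702683-92704339) is the widest DMR of the gene, with 1657 bp and 20 CpGs, and went from 83.6% to 41.3%. It follows P1, which had a similar infant level but ended at 8.81%. The next 6, P3 to P8, lie between 4.65 and 9.25 kb, and their infant means reached from 82.7% to 95.5%. P3 went from 82.7% to 50.3%, P4 from 91.6% to 56.1% and P5 from 87.1% to 49.7%. P6 went from 87.1% to 57.9%, P7 from 90.4% to 61.6% and P8, with the highest infant level of all 54, from 95.5% to 62.6%. The young adult means of these 6 stayed between 49.7% and 62.6%.

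The remaining DMRs of run 1 lie between 11.7 and 30.7 kb. P9, P10 and P11 went from 78.5% to 43.0%, from 78.7% to 41.9% and from 83.6% to 52.2%. P13 was the DMR with the largest loss among them, from 86.9% to 37.0%, and its neighbours P14 and P15 went from 87.1% to 51.4% and from 86.2% to 49.9%. P12 went from 67.3% to 38.1% and P17 from 80.6% to 40.4%. P18 closed the run with 50.6% in infant EC against 19.7% in young adults, the only other DMR of the run besides P1 that ended below 20%.

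Run 1 as a whole had a median of 83.6% in infant EC against 49.5% in young adults. The other 36 DMRs had medians of 66.8% and 31.8%. An infant mean above 80% was found in 12 of the 18 DMRs of run 1 and in 5 of the 36 others, and a young adult mean above 40% in 14 of the 18 and in 8 of the 36. The median difference was nearly the same, -35.6 points in run 1 and -33.8 points elsewhere. The DMRs of run 1 were also longer, with a median of 239 bp against 119 bp in the others, and the part of length in their levels was not tested. Along the gene, the Pearson r with distance from the start site was -0.483 for the infant mean, -0.465 for the young adult mean and -0.00192 for the difference (54 DMRs of the same libraries, description only).

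Between the start of the long transcript and that of NM_001134461.1 lay 26 DMRs, among them the 8 DMRs of P19 to P26. P19 (9 CpGs) went from 72.8% to 44.8% and P21 from 90.6% to 54.4%, on both sides of P20, which ended at 7.59%. P22, P24 and P25 went from 63.6% to 33.4%, from 66.7% to 37.7% and from 63.2% to 30.9%. P26 went from 70.8% to 40.6%. With 1.87 DMRs per 10 kb, this first stretch of 139 kb was more densely occupied than the following one. The density was not even, since 18 of the 26 DMRs belong to run 1 in the first 30.7 kb.

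The stretch between the starts of NM_001134461.1 and NM_001134459.1 (32505 bp) held a single DMR, P27, or 0.308 per 10 kb. Between the starts of NM_001134459.1 and NM_001134460.2 (53469 bp) lay 5. Apart from P30, these went from 75.7% to 38.6% (P28), from 71.0% to 34.6% (P29), from 66.8% to 37.0% (P31) and from 77.5% to 33.1% (P32). From the last start to exon 3 lay 4 more. P34 went from 55.8% to 27.7%, P35 from 85.7% to 56.9% and P36 from 56.2% to 22.5%. P35 is the shortest DMR, with 3 CpGs in 8 bp.

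The part that all transcripts share, from exon 3 to the end of the gene (87767 bp), held 18 DMRs, or 2.05 per 10 kb. Its medians were 65.9% in infant EC against 22.7% in young adults, and 8 of the 18 ended below 20%. This compares with 81.7% and 43.9% in the first stretch.

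Run 8 covered 38.6 kb from 248 kb to 286 kb behind the start site, with exons 3 to 6, and held 13 DMRs. In intron 3, P37 went from 78.0% to 39.0%, P38 from 59.5% to 32.6%, P41 from 54.3% to 20.4% and P42 from 81.4% to 44.1%. P43 had 45.2% in infant EC and 1.97% in young adult EC, and was thus almost free of methylation. The 3 DMRs that precede P47 in intron 4 lie close together and yet differed in level. P44 went from 73.3% to 44.0%, P45 from 44.6% to 9.96% and P46 from 71.9% to 35.3%. Within this short intron the infant means therefore spanned 20.8% to 73.3%.

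P39 (chr6:92443949-92444290) and P40 lie in intron 3 and went from 68.4% to 28.3% and from 63.3% to 19.0%. The study also designed a PCR for MassARRAY, which reads methylation of bisulfite-converted amplicons by mass spectrometry, in Prickle2. Matched to the converted reference, its primers gave an amplicon of 464 bp on the minus strand at chr6:92443791-92444254 with 7 CpGs. This amplicon overlaps P39 and, of P40, only the end with the last printed CpG. MassARRAY values were not used here.

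The last 6 DMRs lie in intron 8. P49 went from 34.9% to 6.45%. P50 (11 CpGs) went from 52.3% to 16.3% and P51 from 78.5% to 38.2%. P52 and P53 followed with the large losses given above, and P54 went from 57.5% to 24.9%. Of the 6, 4 ended below 20%. The predicted noncoding gene Gm38862 runs on the opposite strand from intron 4 to intron 8 (chr6:92404540-92424686) and contains 8 of the 54 DMRs, P44 to P51. A DMR has no strand, so these 8 lie in both genes.

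The 2 sides of the gene differed in DMRs. Within 100 kb upstream of the start site lay 5 DMRs, 3 with loss and 2 with gain, and within 100 kb downstream of the gene 0. The nearest DMR before the start site lay 17.2 kb upstream and lost methylation from 48.4% to 20.3%. On the other side the nearest DMR lay 118 kb beyond the last exon and gained methylation, from 6.10% to 23.0%. Just inside the borders lie P1 and P54. Within 200 kb upstream there were 4 loss and 2 gain DMRs, and within 200 kb downstream 2 gain DMRs. The flanking genes are Adamts9, a metalloprotease gene 66515 bp upstream with 2 loss DMRs, and Trh, which encodes thyrotropin-releasing hormone, 126241 bp downstream with 0. The Adamts9 DMRs went from 67.0% to 42.8% and from 31.0% to 3.73%. Farther away, Fgd5, an exchange factor gene that is active in EC, held 10 loss DMRs between 327 kb and 385 kb downstream, with medians of 69.5% and 34.1%; it was named after its values had been seen.

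**Figure D3:**
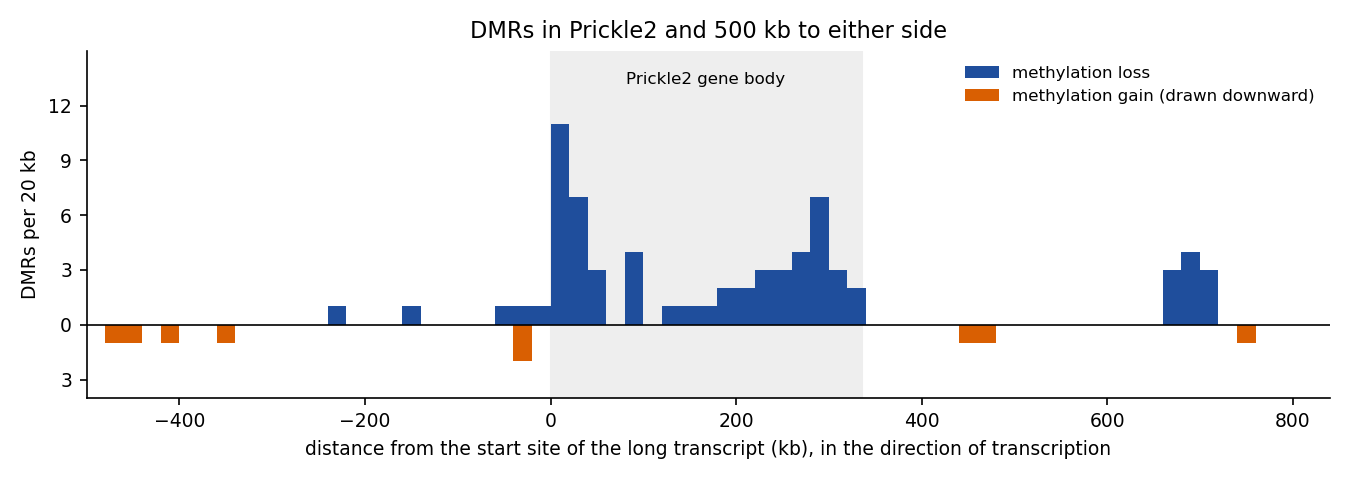
Number of DMRs per 20 kb (y axis) against the distance from the start site of the long transcript (x axis, kb, in the direction of transcription), in Prickle2 (grey) and 500 kb to either side. Blue bars count loss DMRs and orange bars, drawn downward, gain DMRs. All 54 DMRs within the gene are loss DMRs, and the group of 10 loss DMRs at the right lies in Fgd5.

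The gene body has 0.781 CpGs per 100 bp and a GC content of 43.0%, whereas the DMRs had medians of 2.21 CpGs per 100 bp and 47.6% GC. Since a DMR starts and ends with a CpG and needs at least 3, part of this follows from the definition. Counted over a fixed 500 bp around each midpoint, the median was 1.2 CpGs per 100 bp, compared with 1.4 over all loss DMRs. Compared with all loss DMRs (2.94 CpGs per 100 bp, 50.4% GC), those of Prickle2 were less dense. Together they cover 12139 bp (3.62% of the gene) and 221 CpGs (8.44% of its CpGs). Of the 54 DMRs, 30 had 3 CpGs, 16 had 4 and 8 had at least 5.

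Of 12 CpG islands computed in the gene body, the DMRs overlapped 2. Islands were computed for this gene alone, so the share over all DMRs is not known. The study reports that its DMRs as a whole did not coincide with CpG islands. P48 lies in an island that overlaps exon 6, and P50 overlaps in part an island in intron 8. Infant methylation was 90.3% in P48 and 52.3% in P50. Sequence masked as repeats made up 11.4% of the DMR bases, 14.5% of the bases of all loss DMRs and 20.5% of the gene body.

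The letters of 12 binding motifs were searched on both strands, in windows of 200 bp centred on each DMR. AGGAAG, a core that ETS factors bind, occurred in 25 of the 54 windows (46.3%). ETS factors such as ERG and FLI1 are central transcription factors of EC. The letters were found in 28.6% of the windows of all DMRs, in 29.4% of those of all loss DMRs and in 23.1% of 1563 other windows tiling Prickle2. In windows of 400 bp the shares were 59.3% in Prickle2 and 48.3% over all loss DMRs. The letters are present within the printed sequences of P1, P43 and P54. In run 1, 8 of the 18 windows held them, and in run 8, 7 of the 13.

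Prickle2 DMRs with and without AGGAAG had similar methylation. The 25 with the letters had medians of 72.8% and 33.1%, and the 29 without had 73.3% and 38.2%. A match gives only the presence of letters, and binding was not measured here.

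In points, each of the other 11 motifs lay nearer than the ETS letters to its share over all loss DMRs. ACGTG, the core of the HIF site, was found in 18.5% of the Prickle2 windows, 15.5% of those of all loss DMRs and 8.0% of the other windows of the gene. These letters include a CpG, and DMR windows are centred on the midpoint of a region with at least 3 CpGs. Part of the gap to the other windows may therefore follow from the definition of a DMR, which was not tested. TGTTTA (forkhead) occurred in 20.4%, CAGACA (SMAD) in 22.2%, CCACCC (KLF and SP) in 16.7% and GGAATG (TEAD) in 13.0% of the Prickle2 windows, compared with 19.2%, 20.1%, 17.5% and 11.2% over all loss DMRs. AGGTCA (nuclear receptors) was found in 14.8% against 11.4%. Like CCACCC, the remaining motifs had lower shares than over all loss DMRs. ACAANG, bound by SOX factors, occurred in 33.3% against 36.4%. AGATAA, the GATA letters, occurred in 9.26% against 13.8%, and TTGGCA, the NFI letters, in 9.26% against 15%. The STAT letters TTCNNNGAA were present in 5.56% against 6.08%. The AP-1 letters TGANTCA were present in 3.70% against 6.83%. AP-1 letters were present in 2 of the 54 windows. With 54 windows, 1 window more or less shifts a share by 1.85%.

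**Figure D4:**
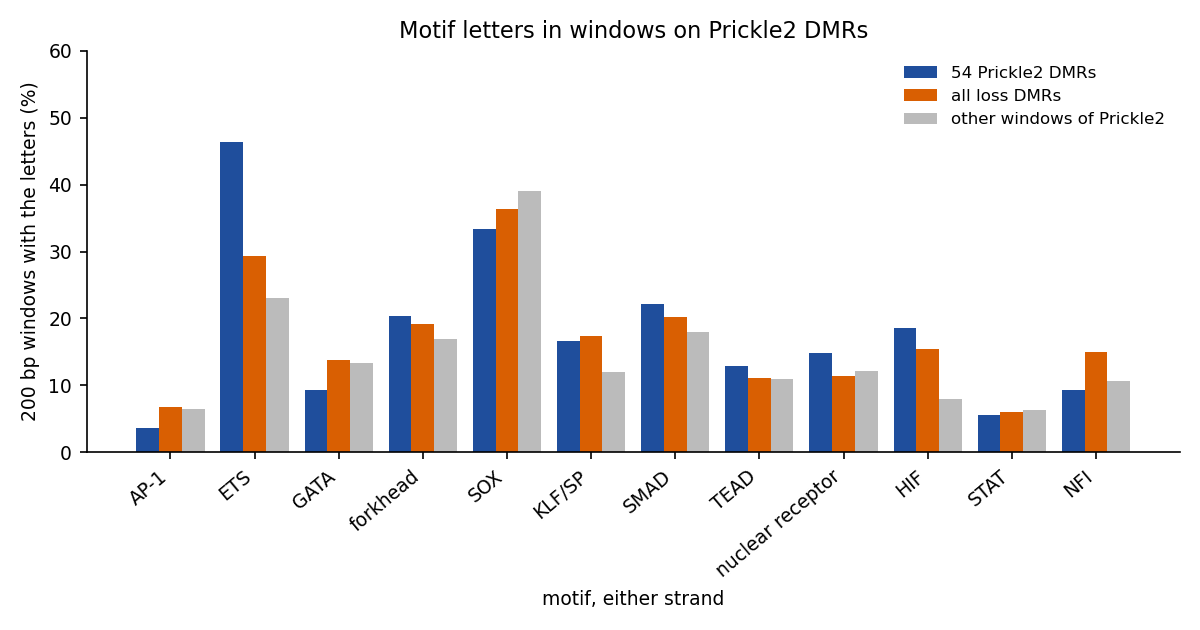
Share of 200 bp windows (y axis, %) that hold the letters of each of 12 motifs on either strand (x axis). Blue bars are the 54 windows on Prickle2 DMRs, orange bars those on all 8422 loss DMRs, which include the 54, and grey bars 1563 other windows of the gene. The ETS letters stand at 46.3%, 29.4% and 23.1%, and no other motif lies as many points from its share over all loss DMRs.

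Among genes, Prickle2 ranked 4 by the number of loss DMRs within the gene body. The 3 genes with the nearest numbers were Pitpnc1, a phosphatidylinositol transfer protein gene, with 51, Cyth3, an Arf exchange factor gene, with 50, and Arhgef3, a guanine nucleotide exchange factor gene, with 59 loss DMRs and 1 gain DMR. Prickle2 was the longest of the 4 and its DMRs were the most dispersed, with 16.1 per 100 kb compared with 19.4, 56.9 and 23.1. It also had the highest young adult median, 37.4%, against 26.5% in Pitpnc1, 29.8% in Cyth3 and 29.1% in Arhgef3. The infant medians of these genes were 64.6%, 75.5% and 67.6%. Of the 474 genes with more than 5 DMRs, 346 had fewer DMRs per 100 kb than Prickle2. Only loss DMRs were found in 229 of the 474, and in 9 of the 91 that are longer than 300 kb, Prickle2 included.

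The genes whose medians lay nearest to those of Prickle2 were Zbtb20, Itga3 and Smarca2. Likeness was measured as the distance over both group medians, among the 474 genes. Zbtb20 lay 0.62 points away with 72.7% and 37.9% (6 loss and 2 gain DMRs), Itga3 1.27 points away with 73.1% and 36.1% (12 loss DMRs) and Smarca2 1.65 points away with 73.0% and 35.7% (26 loss DMRs). Magi1, a gain cluster on the same chromosome, had 22 gain DMRs and 1 loss DMR and showed the opposite course, with medians of 40.2% in infant EC against 64.9% in young adults.

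Within the planar polarity pathway, the genes with the most loss DMRs were Prickle2, Prickle1 and the effector genes Smurf2, Daam1 and Rac1. Besides Prickle2, 46 genes were listed by role, of which 15 (32.6%) held at least 1 loss DMR and 11 (23.9%) at least 1 gain DMR, with 73 loss and 24 gain DMRs in all. For comparison, 8.46% of the 26182 annotated genes held a loss DMR and 11.4% a gain DMR. The shares were not adjusted for gene length, and the list was drawn up with results of these data known, so they are counts only.

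Prickle1, the closest relative of Prickle2 in the list, was the other large loss cluster of the core, with 21 loss and 0 gain DMRs. Its medians, 77.7% in infant EC against 41.5% in young adults, lay near those of Prickle2, and its median difference was -33.5 points. The arrangement differed from that of Prickle2. Of the 21 DMRs of Prickle1, 6 had their midpoint in an exon of NM_001033217.5 against 1 of 54 in Prickle2. The share of exon sequence was not compared between the genes, which are 96792 bp (Prickle1) and 335293 bp long. The first DMR of Prickle1 lay 28.4 kb behind the start site of NM_001033217.5. Intron 1 of that transcript held 9. The largest loss in Prickle1 was in intron 4 (chr15:93508572-93509002, 11 CpGs), from 73.8% to 21.3%. The DMRs in its last exon went from 91.1% to 71.7%, from 85.9% to 49.6% and from 92.2% to 53.1%.

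Outside the Prickle genes, the core held few DMRs. Vangl2, which encodes the membrane protein that recruits Prickle, had 1 loss DMR (50.7% to 30.5%), and so had the Frizzled receptor gene Fzd6 (45.2% to 6.93%) and the scaffold gene Scrib (57.0% to 35.3%). The bridging cadherin genes Celsr1 and Celsr2 had 1 and 2 gain DMRs, and the pseudokinase receptor gene Ptk7 had 1 loss and 2 gain DMRs. The other 9 of the 16 core genes besides Prickle2, among them Prickle3, Prickle4, Vangl1 and the Dishevelled genes Dvl1, Dvl2 and Dvl3, held none.

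Of the 7 ligand and co-receptor genes, 4 held no DMR. The others carried 6 gain DMRs, 1 in the Wnt ligand gene Wnt5b and 5 in the co-receptor gene Ror1, and 2 loss DMRs in Ryk, a further Wnt co-receptor gene. In the Fat and Dachsous group, made up of large cadherin genes and Fjx1, 3 of 7 genes held no DMR, Fjx1 among them. Fat1 had 2 gain DMRs, Dchs1 had 3 and Dchs2 had 2, and Fat4 had 1 loss DMR. Dchs1 started from a median of 5.41% in infant EC and reached 30.2%, both below the medians of Prickle2.

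Effectors held 43 loss and 5 gain DMRs. Smurf2, a ubiquitin ligase gene whose product together with that of Smurf1 marks Prickle1 protein for degradation, had 16 loss DMRs with medians of 68.9% and 28.7%, and Smurf1 had 2. Daam1, a formin gene downstream of Dishevelled, had 10 loss DMRs (55.6% and 20.3%), of which 9 lay in its first intron. The small GTPase genes Rac1 and Rhoa had 9 (58.7% and 21.6%) and 2 loss DMRs. Nos1ap had 4 loss and 4 gain DMRs and Intu 1 gain DMR. Among the PET and LIM domain relatives, Tes had 1 loss DMR and Lmcd1 had 1 of each direction. Among the listed genes with more than 1 DMR and only losses, Prickle1 alone had a young adult median above that of Prickle2.

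**Figure D5:**
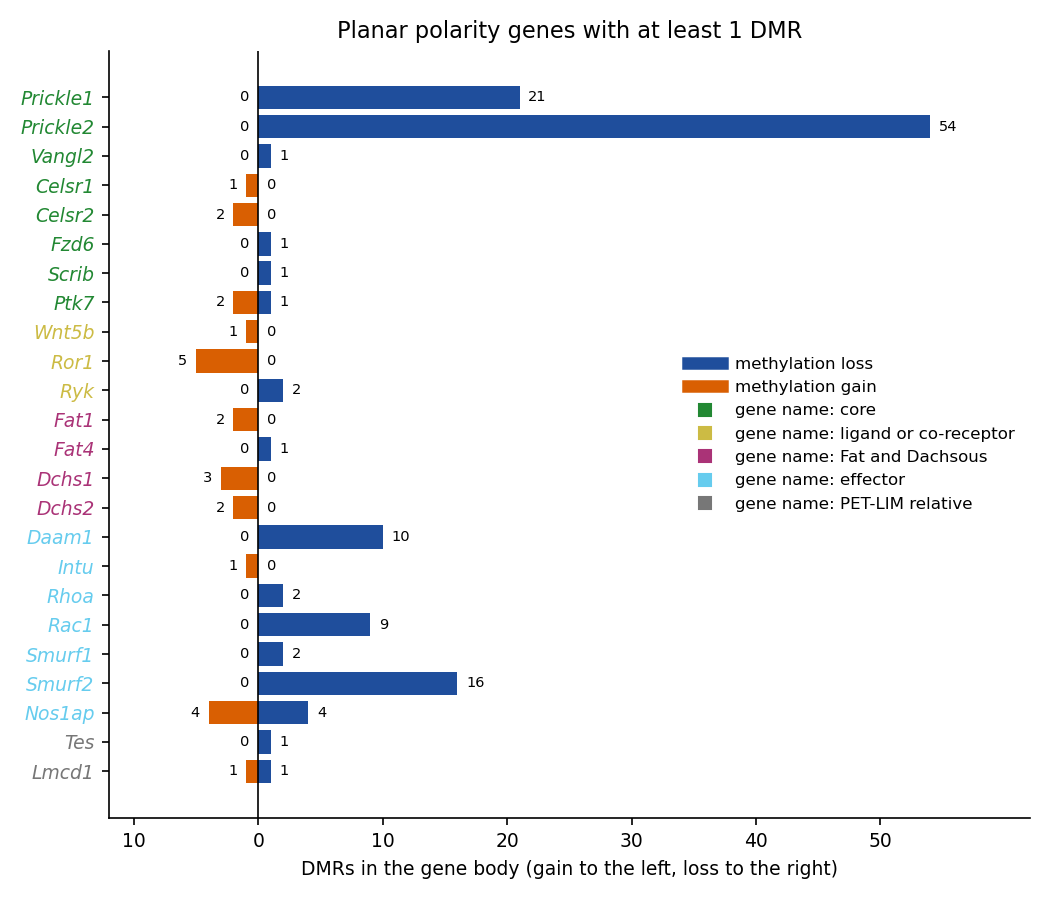
DMRs in the gene body of each planar polarity gene with at least 1 DMR (y axis; x axis, number of DMRs, gain to the left in orange, loss to the right in blue). The colour of a gene name gives its role. Prickle2 (54), Prickle1 (21), Smurf2 (16), Daam1 (10) and Rac1 (9) have the most loss DMRs, and Ror1 (5) has the most gain DMRs.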

How the data were processed

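The sorted lung EC of 6 samples (3 infant, 3 young adult) were sequenced by T-WGBS. The authors aligned the reads with BWA 0.6.1 to mm10 converted in silico, called methylation from bases with a quality of at least 20, and called DMRs with bsseq, without smoothing. A CpG had to be covered 8-fold or more in 2 or more samples of each group. A DMR needed 3 or more consecutive CpGs with p under 0.05 and group means that differed by 10% or more. The deposited values are fractions that the authors averaged per group. The authors' columns of direction and nearest promoter were not used, and direction was taken from the sign of the difference.

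Here the fractions were converted to percent, and the infant mean was subtracted from the young adult mean, with Python 3.11.15, pandas 2.3.3 and numpy 2.4.6. Positions in the list point at the C of the first and last CpG, counted from 0, and were written here from 1. On GRCm38, 18333 of 18333 DMRs then began and ended with a CpG. Genes and start sites are those of curated RefSeq transcripts, and promoter windows those of RefSeq for GRCm38. CpG islands were merged windows of 200 bp with at least 50% GC and more than 0.6 of the CpGs expected from base composition. The assignment to genes, introns and runs, the merging and the motif and island searches were checked on simulated regions and sequences. Group means allow no test across samples, and the design table planned none.

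Members, gene lists, motifs and comparisons were chosen with earlier results of these data known. Named are Prickle2 and its DMRs (the 5 largest, the 5 smallest and the outermost in full), planar polarity genes with a DMR, the flanking genes, the 3 genes nearest in number of loss DMRs, the 3 nearest in group medians among genes with more than 5 DMRs, and Magi1.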

Additional observations from a re-analysis of the deposited data

How the results depend on the processing

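A count was taken as stable within 1.5 times, a median within 1 SD over the DMRs and a share within its 95% Wilson interval. The medians of infant and young adult methylation and of the difference were stable under every alternative tried (weighting by CpGs, at least 5 CpGs, a difference of at least 20%, and for the difference merging within 500 bp). This criterion is wide, as 1 SD was 16.6, 17.2 and 10.2 points, and the alternatives reweight, subset or merge the same 54 DMRs. Of the 54 DMRs, 51 remain at a difference of at least 20%, 38 at 30% and 42 after merging, but only 8 with at least 5 CpGs. The share in the intron with most DMRs, 66.7% on the long transcript, was 35.7% on NM_001134461.1, 33.3% on NM_001134459.1, 31.8% on NM_001134460.2, which start inside that intron, and 50% with at least 5 CpGs. The 11 runs became 29 with gaps of up to 2 kb and 1 with gaps of up to 50 kb. DMRs flanking the gene numbered 8 within 200 kb, 5 within 100 kb and 24 within 500 kb. Motif shares in windows of 400 bp moved beyond the interval for SOX (51.9%) and TEAD (25.9%). Over all loss DMRs these shares rose too with the wider window, from 36.4% to 59.7% (SOX) and from 11.2% to 20.9% (TEAD). Forkhead (22.2%) and SMAD letters (29.6%) lay below their shares over all loss DMRs at 400 bp, 31.7% and 36.0%, but above them at 200 bp. The other motifs stayed on the same side of that share at both widths. Planar polarity genes with a loss DMR, Prickle2 included, numbered 16, and between 15 and 17 under the alternatives. No paired analysis was possible because the values are group means, and for the same reason no sample could be left out. The unknown depth of each DMR limits the precision of all levels, most of all in the 30 DMRs with 3 CpGs.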
